A study of Homo sapiens with 8 samples.

Results

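The genes described are 9 amino acid transporters of the plasma membrane, SLC38A2, SLC38A1, SLC7A1, SLC1A4, SLC1A5, SLC6A9, SLC7A5, SLC7A6 and SLC43A1, out of 19447 genes in the count table. They were chosen by name for what they carry, not by a measured value of these libraries, although results of these data were known when they were chosen. The RNA came from K562, an established human leukaemia line that the labels give as WT in genotype. The 8 libraries comprise 4 controls without Lip-1 (controls 1 to 4, Day 0), 3 libraries at 10 µM Lip-1 for 24 h (replicates 2 to 4, Day 1) and 1 library at 20 µM Lip-1 for 24 h (replicate 1, Day 1). Lip-1 is not written out in the labels. The short name usually stands for liproxstatin-1, which blocks lipid peroxidation and the iron-dependent cell death called ferroptosis. All groups share the line and the medium with fetal bovine serum, and no vehicle is stated for the controls. The treated libraries are also the only ones of Day 1, so treatment and day cannot be told apart. The only library labelled 20 µM has no replicate check.

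Animal cells take up amino acids through carriers that work in relays. Sodium-coupled carriers such as SLC38A1 and SLC38A2 build up glutamine and other small neutral amino acids inside the cell. Exchangers such as SLC7A5 trade these for leucine and other large neutral amino acids from outside. When amino acids run short, the kinase GCN2 (EIF2AK4) phosphorylates the initiation factor eIF2 and the transcription factor ATF4 is made, which raises many transporter genes through composite C/EBP-ATF elements, also called amino acid response elements. MYC is known to raise SLC7A5 and SLC1A5 in proliferating cells.

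The start sites of the 9 genes were searched for the core letters of those elements, TGATGNAA, and for the E-box bound by MYC, CACGTG, on both strands. RefSeq promoter windows (GRCh38.p14), running from 250 bases before to 50 bases after a start, were available for 9 of the 9 genes, in 14 windows. The element core was found in 4 windows, 1 each of SLC7A1, SLC1A4, SLC1A5 and SLC38A1, and in 3.62% of all 35116 windows. These 4 sites are printed on the gene's strand because 3 of the 4 genes lay above every control in all treated libraries. As given further on, so did 18.1% of all genes, and so did SLC38A2, which held no match. The remaining gene with a match, SLC1A5, overlapped with the controls. Whether a match goes with a higher level was not tested. Capitals mark the 8 bases of the match, which for SLC1A4 read on the opposite strand.
SLC7A1, chr13:29595664-29595691, minus strand: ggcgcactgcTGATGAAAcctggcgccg
SLC1A4, chr2:64989382-64989409, plus strand: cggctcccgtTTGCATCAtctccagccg
SLC1A5, chr19:46784894-46784921, minus strand: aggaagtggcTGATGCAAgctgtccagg
SLC38A1, chr12:46266503-46266530, minus strand: cagacccgaaTGATGAAAagggatcagc
The match begins 8 bases after the only start listed for SLC7A1. In SLC1A4 and SLC38A1 it spans 1 of 2 listed starts, and in SLC1A5 it lies 97 to 90 bases before 1 of 3. In these last genes that start lies inside the annotated gene, so it is an alternative one. The E-box was found in 3 windows, 1 each of SLC7A5, SLC1A5 and SLC43A1, and in 7.26% of all windows. These 3 sites are shown for comparison with MYC, whose level is given with the pathway genes, and capitals mark the E-box.
SLC7A5, chr16:87869622-87869647, minus strand: ccggacgacgCACGTGctccgagctg
SLC1A5, chr19:46787328-46787353, minus strand: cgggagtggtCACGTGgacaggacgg
SLC43A1, chr11:57515799-57515824, minus strand: gcgggcgagtCACGTGcgcgtgaaac
The windows of SLC38A2, SLC6A9 and SLC7A6 held neither set of letters. A match describes letters only and is not evidence of a bound site, and an element elsewhere in the gene would not be seen.

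Levels are given as counts per 1000000 of the library's total (CPM), and fold changes come from edgeR, which also applies a scaling factor per library (TMM), so a fold change can differ from the ratio of CPM means. Total counts ran from 71151415 to 141307169, and the 9 genes held 622 to 154241 counts per library. Counting error alone, with each count taken as a single read, was 4.01% at the lowest of these. Genes that mark erythroid cells, the lineage K562 resembles, were present in all 8 libraries, with a summed level of 4207 to 7570 CPM in the controls, 3407 to 4515 at 10 µM and 2753 at 20 µM. Summed megakaryocyte markers stood at 4.24 to 11.5, 15.7 to 22.3 and 96.6 CPM, carried by ITGB3, with PF4 at 0 in 8 of 8 libraries. Summed lymphocyte markers (12.9 to 17.1, 13.6 to 23.1 and 6.40 CPM), monocyte markers (17.9 to 125.9, 19.6 to 107.9 and 22.8 CPM) and epithelial and fibroblast markers (30.5 to 54.6, 32.2 to 42.7 and 27.1 CPM) stayed far below the erythroid sum. In bulk RNA, fewer cells of a type and less RNA per cell cannot be told apart, and the part of the marker shifts in the results was not tested.

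In the controls the 9 carriers covered a wide range. Per kilobase of annotated exon, SLC1A5, the sodium-coupled glutamine exchanger, was the highest at 138.9 ± 3.88 CPM per kb (SD, n = 4), and SLC7A5, the leucine-importing exchanger LAT1, followed at 50.8 ± 4.21. SLC38A1 (30.5 ± 4.24), SLC38A2 (25.4 ± 4.63) and SLC7A6 (24.7 ± 2.36) overlapped in range and were not separable beyond their spread. SLC7A1, the cationic carrier of arginine and lysine, stood at 11.4 ± 0.899 and overlapped with SLC43A1 at 9.76 ± 1.54. SLC1A4 (3.46 ± 1.84) and SLC6A9 (2.34 ± 0.940) were lowest and overlapped too. The order changed with Lip-1. SLC38A2 moved from the fourth place to the second, at 76.6 ± 16.8 CPM per kb at 10 µM (n = 3) and 188.0 at 20 µM, below SLC1A5 at 122.6 ± 8.68 and 229.2.

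**Figure D1:**
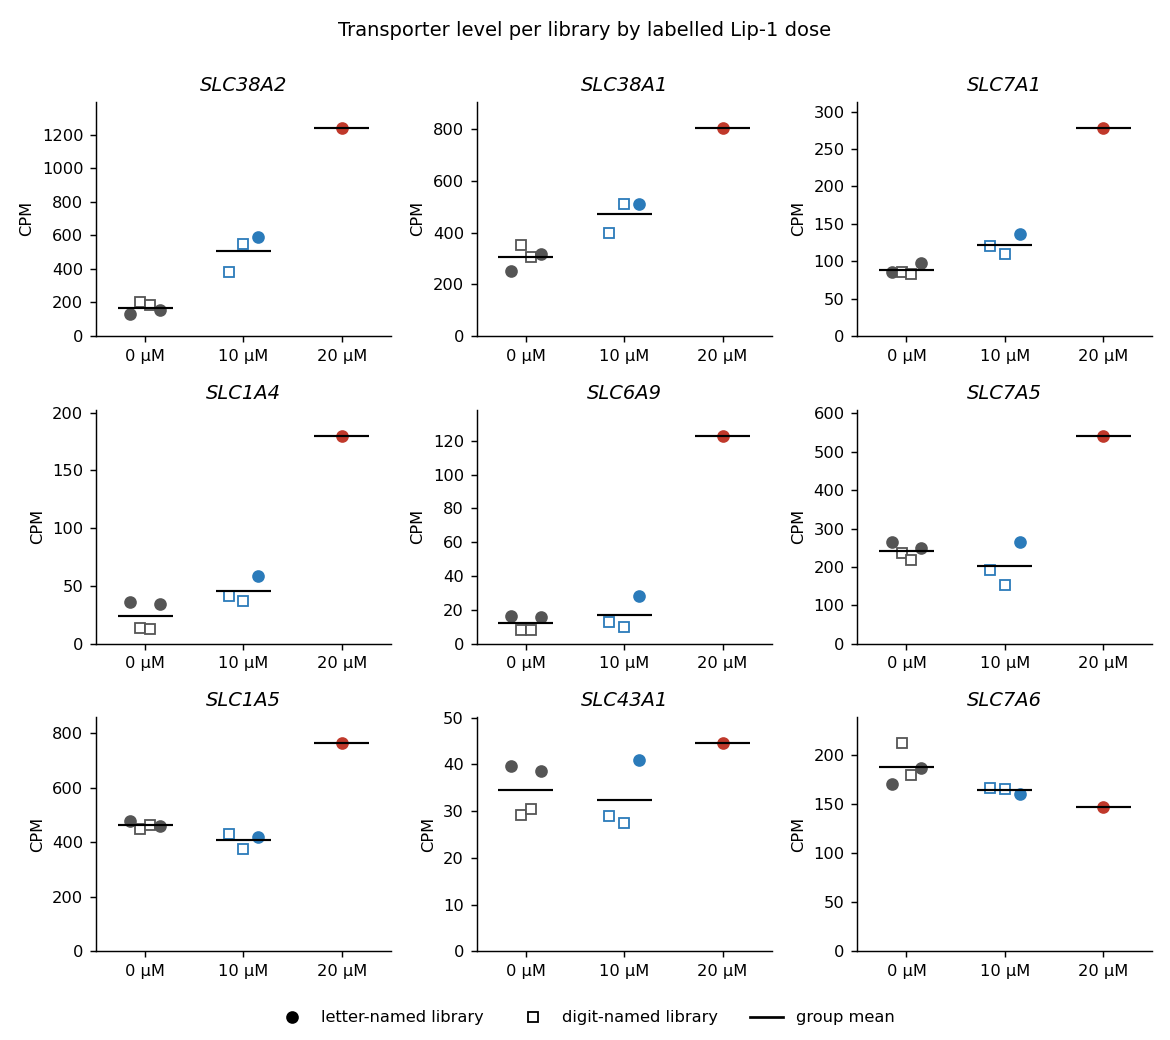
Level of each transporter in CPM (y axis, from 0) by labelled Lip-1 dose (x axis), with 1 point per library, filled where the library name has a letter and open where it has a digit, and a line at the group mean. SLC38A2 climbs from 132.6 to 201.8 CPM in the controls to 379.9 to 589.2 at 10 µM and 1241 at 20 µM, while SLC7A6 is the only gene whose 20 µM library lies below the other 7.

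The carriers did not move as a block at 10 µM. SLC38A2, SLC38A1 and SLC7A1 rose and SLC1A5 fell, so 3 of 9 were higher and 1 of 9 lower by edgeR at an adjusted p under 0.05, against 9.34% and 9.79% of the 14857 genes tested (19.1% in either direction). Their median log2 fold change was 0.35, beside 0.05 for all genes. At 10 µM, 4 of 9 lay above every control (21.8% of all genes did) and 2 of 9 below every control (10.7%, and 32.6% either way). With same-numbered libraries paired (replicate block), 5 of 9 were higher and 3 lower. That fit also called more of all genes, 4657 of 14857 in either direction.

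SLC38A2 (chromosome 12, 46358189 to 46372867, minus strand), the sodium-coupled neutral amino acid carrier SNAT2, had the largest rise of the 9 at 10 µM. It stood at 132.6, 201.8, 181.8 and 153.4 CPM in controls 1 to 4, at 379.9, 549.0 and 589.2 in 10 µM replicates 2 to 4, and at 1241 in the 20 µM library. Every treated library lay above every control, and the lowest, 10 µM replicate 2, was still well clear of control 2. The log2 fold change at 10 µM was 1.46 (SE 0.20, edgeR adjusted p = 0.00249), and the call was kept without any 1 library. Libraries with digits in their names (controls 2 and 3, 10 µM replicates 2 and 3) gave 1.12 on their own (adjusted p = 0.00237), and those with letters 1.86 (adjusted p = 0.0129).

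SLC38A1 (chromosome 12, 46183063 to 46270017, minus strand), the related carrier SNAT1, lies near SLC38A2 on the same strand. Its levels were 249.4, 351.8, 304.6 and 316.1 CPM in the controls, 396.4, 509.5 and 509.1 at 10 µM and 804.8 at 20 µM. The groups did not overlap, although 10 µM replicate 2 stood only a little above control 2. SLC38A1 rose by 0.49 at 10 µM on the log2 scale (SE 0.15, edgeR adjusted p = 0.0481). Within the naming pattern it stood at 0.31 in the digit-named libraries (adjusted p = 0.141) and 0.67 in the letter-named ones (adjusted p = 0.0843). The call was lost without controls 1, 3 or 4 (adjusted p = 0.0604, 0.0847 and 0.0955), without 10 µM replicates 3 or 4 (0.159 and 0.119) and under relative log expression scaling (0.0554).

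SLC7A1 (chromosome 13, 29509410 to 29595688, minus strand), known as CAT1, imports arginine, lysine and ornithine. It was at 85.6, 85.2, 82.3 and 97.9 CPM in the controls, 120.7, 110.1 and 136.2 at 10 µM and 278.4 at 20 µM. All treated libraries lay above all controls, and the same-numbered pairs at 10 µM gave close ratios, 1.42, 1.34 and 1.39. SLC7A1 rose by 0.35 at 10 µM on the log2 scale (SE 0.10, edgeR adjusted p = 0.0345). It stood at 0.31 in the digit-named libraries (adjusted p = 0.115) and 0.39 in the letter-named ones (adjusted p = 0.176). Leaving out control 1, 2 or 3 (adjusted p = 0.0622, 0.0823 and 0.0824) or 10 µM replicate 2, 3 or 4 (0.0675, 0.0576 and 0.117) ended the call.

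SLC1A4 and SLC6A9 were the low carriers of the set and split by library name in the controls and at 10 µM. The submitters' names hold letters for controls 1 and 4, 10 µM replicate 4 and the 20 µM library, while controls 2 and 3 and replicates 2 and 3 at 10 µM have digits. No label calls this a batch. SLC1A4 (chromosome 2, 64988477 to 65023865, plus strand), the exchanger ASCT1 of alanine, serine and cysteine, stood at 35.7 and 34.5 CPM in controls 1 and 4 against 13.3 and 12.7 in controls 2 and 3. At 10 µM it was at 41.4 and 36.8 in replicates 2 and 3 and 58.5 in replicate 4, and at 20 µM at 180.2. All treated libraries lay above all controls, but replicate 3 did so narrowly against control 1.

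The log2 fold change of SLC1A4 at 10 µM was 0.81 (SE 0.35, edgeR adjusted p = 0.148) and did not pass. With the replicate block it was 1.16 and passed (adjusted p = 0.000618). Within the naming pattern it stood at 1.43 in the digit-named libraries (adjusted p = 0.000448) and 0.56 in the letter-named ones (adjusted p = 0.0670).

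SLC6A9 (chromosome 1, 43991500 to 44031467, minus strand) encodes the glycine carrier GLYT1, which supplies glycine for haem synthesis in erythroid cells. It was at 16.6 and 16.0 CPM in controls 1 and 4, and at 7.90 and 7.87 in controls 2 and 3. The 10 µM libraries gave 12.9, 10.1 and 27.98 in replicates 2 to 4, and the 20 µM library 123.1. Replicates 2 and 3 lay between the control values, so the groups overlapped, yet each treated library exceeded the control of its own number. The log2 fold change at 10 µM was 0.36 (SE 0.37, edgeR adjusted p = 0.550), and 0.48 with the replicate block, which passed (adjusted p = 0.0207). It turned to -0.17 without 10 µM replicate 4. Within the naming pattern it was 0.39 (digits, adjusted p = 0.195) and 0.60 (letters, adjusted p = 0.0766).

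With dose in the model, letter-named libraries stood higher in SLC6A9 by 1.05 (SE 0.12, edgeR adjusted p = 0.00143), in SLC1A4 by 1.01 (SE 0.16, adjusted p = 0.00838) and in SLC43A1 by 0.36 (SE 0.09, adjusted p = 0.0495). These were 3 of 9, against 8.10% of all genes in either direction. SLC7A5 stood at 0.27 (adjusted p = 0.200) and the other 5 between -0.20 and 0.08. The comparison was added after the data were seen. Monocyte and erythroid marker sums followed the same names in part. Monocyte markers stood at 124.6, 125.9 and 107.9 CPM in controls 1 and 4 and 10 µM replicate 4, against 17.9 to 27.1 in the digit-named libraries, but at 22.8 in the 20 µM library. Erythroid markers stood at 7570 and 7198 CPM in controls 1 and 4 against 4207 and 5590 in controls 2 and 3. At 10 µM they stood at 4515 in replicate 4 against 3407 and 3635, but the letter-named 20 µM library was the lowest, at 2753. Lymphocyte markers did not split by name at 10 µM, at 21.1 in replicate 4 against 23.1 and 13.6 in replicates 2 and 3. The part of the marker sums in the split of SLC1A4, SLC6A9 and SLC43A1 was not tested.

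**Figure D2:**
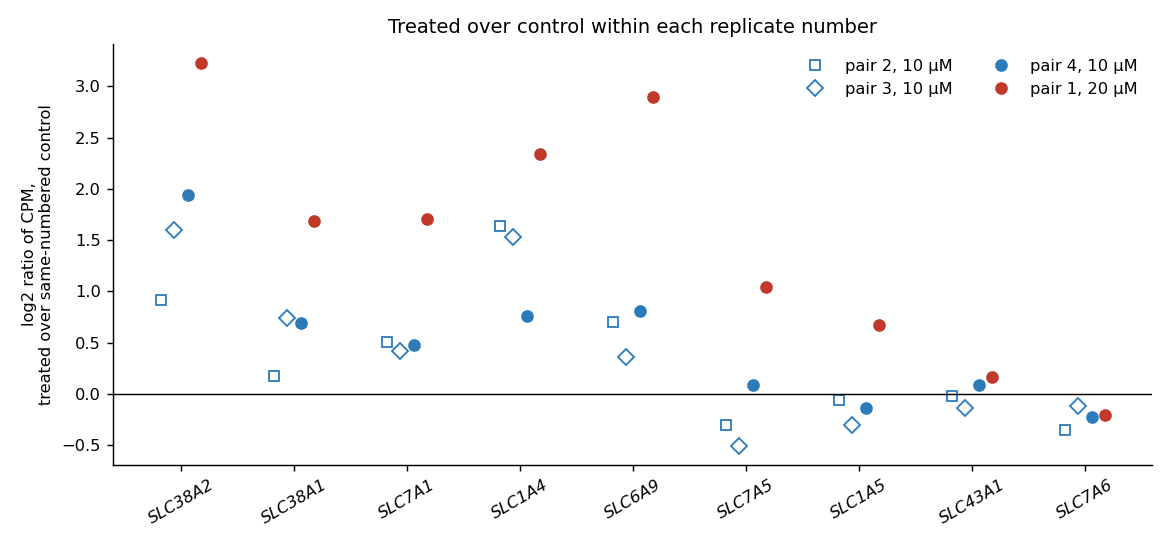
Log2 ratio of CPM, treated over same-numbered control (y axis), for each transporter (x axis), with 1 symbol per pair, open for digit-named pairs 2 and 3 and filled for letter-named pairs 4 and 1. SLC38A2, SLC38A1, SLC7A1, SLC1A4 and SLC6A9 lie above 0 in 4 of 4 pairs and SLC7A6 below 0 in 4 of 4. The share of all genes that do so was not counted. CPM leaves out TMM, which would lower the ratio in every pair.

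SLC1A5 (chromosome 19, 46774883 to 46788594, minus strand), known as ASCT2, exchanges glutamine for other neutral amino acids. It is of the same family as SLC1A4, and it fell at 10 µM. Its levels were 479.6, 448.3, 463.0 and 459.9 CPM in the controls, 431.2, 376.0 and 418.5 at 10 µM and 763.6 at 20 µM. The 10 µM libraries all lay below the controls and the 20 µM library above them. The log2 fold change at 10 µM was -0.31 (SE 0.09, edgeR adjusted p = 0.0446). It stood at -0.33 in the digit-named libraries (adjusted p = 0.0781) and -0.35 in the letter-named ones (adjusted p = 0.146). The call ended without any 1 control (adjusted p = 0.0621, 0.0873, 0.106 and 0.0863 for controls 1 to 4), without 10 µM replicate 3 or 4 (0.151 and 0.103), under upper-quartile scaling (0.0573) and with no filter on low counts (0.0677).

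The exchangers of large neutral amino acids stood lower at 10 µM without passing the test. SLC7A5 (chromosome 16, 87830023 to 87869488, minus strand) was at 263.9, 235.1, 217.0 and 248.9 CPM in the controls, 190.9, 152.9 and 264.5 at 10 µM and 542.4 at 20 µM. In CPM, replicates 2 and 3 lay below every control, while replicate 4 lay just above the highest, at 264.5 against 263.9. CPM leaves out TMM, whose factor was 1.085 for replicate 4 and 1.000 for control 1. With TMM, replicate 4 would lie below control 1. Its log2 fold change at 10 µM was -0.38 (SE 0.15, edgeR adjusted p = 0.115), and -0.39 with the replicate block, which passed (adjusted p = 0.0358). The digit-named libraries gave -0.55 (adjusted p = 0.0230) and the letter-named ones -0.13 (adjusted p = 0.556). The annotation lists pseudogenes of SLC7A5 on chromosome 16, so how its reads were split is uncertain.

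SLC7A6 (chromosome 16, 68264516 to 68301823, plus strand), the exchanger y+LAT2, which sends out cationic amino acids in return for neutral ones, was the only carrier of the 9 below every control in all 4 treated libraries. It was at 170.7, 212.5, 180.3 and 187.3 CPM in the controls, 166.7, 165.9 and 160.5 at 10 µM and 147.8 at 20 µM. Control 1 stood close to the treated libraries. The log2 fold change at 10 µM was -0.32 (SE 0.11, edgeR adjusted p = 0.0772), and -0.38 with the replicate block, which passed (adjusted p = 0.0152). It was -0.39 in the digit-named libraries (adjusted p = 0.0507) and -0.34 in the letter-named ones (adjusted p = 0.215). SLC7A6OS on the opposite strand shares 44.4% of the exon bases of SLC7A6, and without a stated strand the reads of the 2 genes cannot be told apart. SLC7A6OS stood at -0.05 at 10 µM (adjusted p = 0.900).

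SLC43A1 (chromosome 11, 57484534 to 57515786, minus strand), the facilitated carrier LAT3 of branched-chain amino acids, had the smallest log2 fold change of the 9 at 10 µM. It stood at 39.7, 29.2, 30.4 and 38.6 CPM in the controls, 28.9, 27.6 and 41.0 at 10 µM and 44.6 at 20 µM. The groups overlapped, and the letter-named libraries were the highest in the controls and at 10 µM. Its log2 fold change at 10 µM was -0.21 (SE 0.15, edgeR adjusted p = 0.374). Antisense genes also overlap exons of SLC1A5 and SLC6A9, by 23.4% of the bases of SLC1A5 (a gene outside the table) and 7.83% of those of SLC6A9 (CCDC24).

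From 10 to 20 µM the picture was more uniform. Of the 9 carriers 7 were higher in the 20 µM library than at 10 µM by edgeR, and none of the 9 was called lower at an adjusted p under 0.05, at an unadjusted one, or by DESeq2 or limma-voom, against 11.7% higher and 14.6% lower among all genes (26.3% in all). Their median log2 difference was 1.19, beside 0.01 for all genes. The step is carried by 1 library, which the fit assumes to vary like the others. SLC6A9 differed most, by 2.87 (SE 0.50, edgeR adjusted p = 0.00393), followed by SLC1A4 at 1.99 (SE 0.49, adjusted p = 0.0174).

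SLC7A5 and SLC1A5, whose means at 10 µM were below those of the controls, stood above them at 20 µM. SLC7A5 differed by 1.43 (SE 0.21, edgeR adjusted p = 0.00211) and SLC1A5 by 0.90 (SE 0.13, adjusted p = 0.00183). SLC38A2 gave 1.30 (adjusted p = 0.00965), SLC7A1 1.19 (adjusted p = 0.000737) and SLC38A1 0.77 (adjusted p = 0.0295). SLC43A1 (0.46, adjusted p = 0.165) and SLC7A6 (-0.16, adjusted p = 0.535) did not pass. Without 10 µM replicate 2 SLC1A4 and SLC38A1 lost their calls (adjusted p = 0.0585 and 0.0610), and without replicate 3 SLC1A4 did (0.0600). The order of the 7 depended on the fit. With the replicate block SLC6A9 stood at 2.34, SLC38A2 at 1.82, SLC7A5 at 1.36 and SLC7A1 at 1.32. SLC38A1 stood at 1.24, SLC1A4 at 1.11 and SLC1A5 at 0.91, so SLC1A4 was no longer second. With the naming pattern as a term SLC38A2 (1.42) also stood above SLC1A4 (1.32).

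Since the 20 µM library is letter-named, its closest match at 10 µM is replicate 4. Its CPM was 4.40 times that of replicate 4 for SLC6A9, 3.08 times for SLC1A4, 2.11 for SLC38A2, 2.05 for SLC7A5, 2.04 for SLC7A1, 1.82 for SLC1A5 and 1.58 for SLC38A1. It was 1.09 times for SLC43A1 and 0.921 times for SLC7A6. With 1 library on each side there is no test of these ratios.

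**Figure D3:**
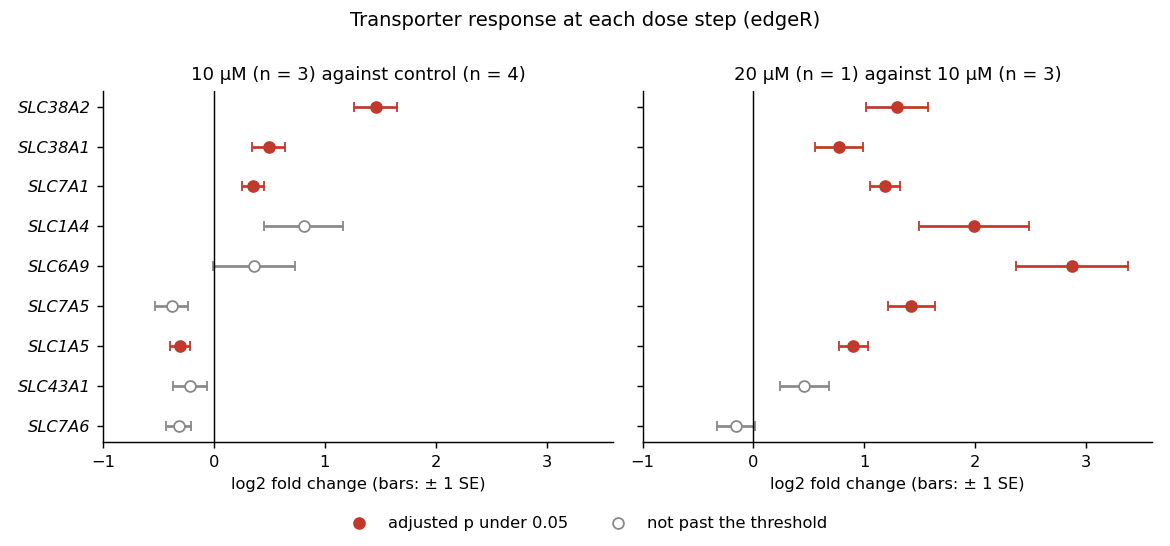
Log2 fold change from edgeR (x axis, bars ± 1 SE) for each transporter (y axis), at 10 µM against control on the left and 20 µM against 10 µM on the right, filled in red where the adjusted p is under 0.05. On the left 3 carriers are called higher and SLC1A5 lower, and on the right 7 of 9 are called higher.

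With both doses pooled against the controls, only SLC38A2 passed, at 1.92 (SE 0.35, edgeR adjusted p = 0.0171), so 1 of 9 was called higher, against 7.47% of 13101 genes (6.69% were lower, 14.2% in all). The median of the 9 was 0.74, beside 0.08 for all genes. In 4 of 9 (SLC38A2, SLC38A1, SLC7A1 and SLC1A4) every treated library lay above every control, as in 18.1% of all genes, and in SLC7A6 below, as in 10.5% (28.6% either way). SLC38A1 stood at 0.74 (adjusted p = 0.0588), SLC7A1 at 0.76 (0.0954), SLC6A9 at 1.75 (0.139) and SLC7A6 at -0.35 (0.0802). SLC1A4 stood at 1.63 (adjusted p = 0.0837), and at 1.45 with the replicate block, which passed (0.0198). SLC7A5 (0.14, adjusted p = 0.812), SLC1A5 (-0.01, 0.973) and SLC43A1 (-0.07, 0.802) averaged values on either side of the controls. SLC38A2 lost its call without control 2, 3 or 4 (adjusted p = 0.0593, 0.0679 and 0.0556). Leaving out the 20 µM library gave 3 higher and 1 lower, as at 10 µM alone.

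The sum of the 9 carriers was 1523 ± 54.8 CPM in the controls (SD, n = 4), 1971 ± 220.2 at 10 µM (n = 3) and 4126 at 20 µM. SLC38A2 took 11.0 ± 1.82% of this sum in the controls, 25.5 ± 3.58% at 10 µM and 30.1% at 20 µM (95% Wilson interval 29.96 to 30.2%, counting error only). The share of SLC1A5 was 30.4 ± 1.87%, 20.9 ± 3.00% and 18.5% (interval 18.4 to 18.6%). SLC7A6 went from 12.3 ± 0.776% to 8.42 ± 1.08% and 3.58% (interval 3.53 to 3.63%). The intervals take each count as a single read, which may not hold, so they may be too narrow.

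**Figure D4:**
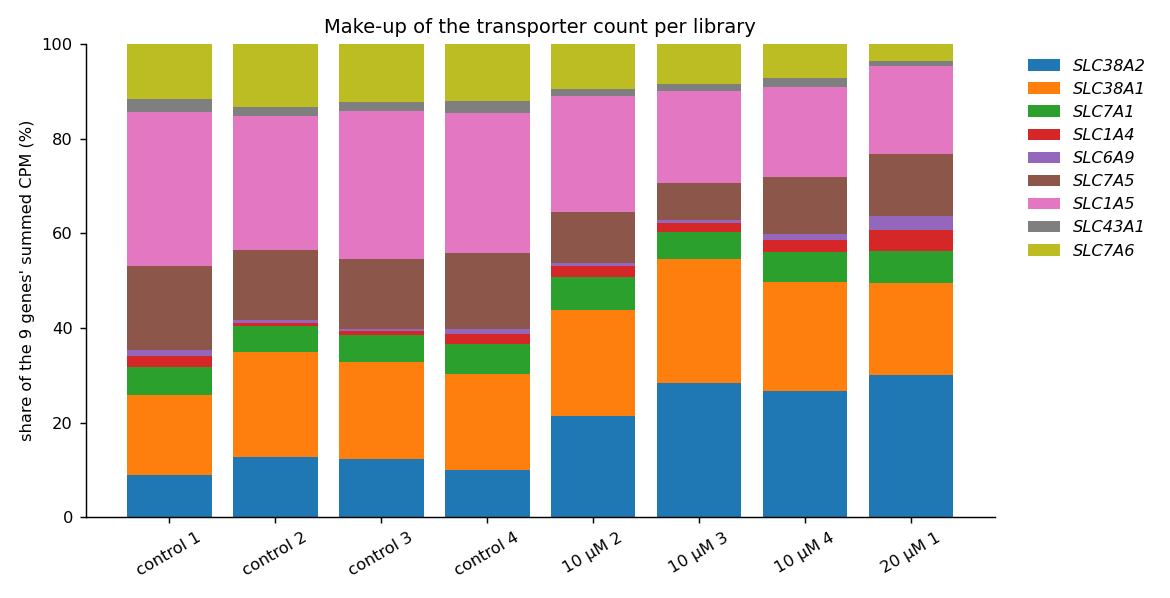
Share of the summed CPM of the 9 transporters (y axis, %) taken by each gene, with 1 stacked bar per library (x axis). SLC38A2 at the base widens from 9.00 to 12.7% in the controls to 21.5 to 28.3% at 10 µM and 30.1% at 20 µM, while SLC1A5 and SLC7A6 narrow.

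Over the 8 libraries the carriers were compared by Pearson's r of log2 CPM, with dose, day and the 20 µM library shared by all points. SLC38A1 and SLC38A2 ran together (r = 0.969), as did SLC1A4 and SLC6A9 (0.929) and SLC7A5 and SLC1A5 (0.917), while SLC7A6 ran against SLC1A4 (-0.880). These pairs are not separate groups. SLC7A1 ran with SLC6A9 (0.916), SLC38A1 (0.895), SLC1A4 (0.892) and SLC38A2 (0.877). Of all other genes tested, the pattern most like SLC38A2 was that of WSB1 (0.991), and for SLC38A1 that of KIF1B (0.998). SLC7A1 was closest to CECR2 (0.994), SLC1A4 to LRGUK (0.995) and SLC6A9 to S100A11 (0.991). SLC7A5 was closest to CCDC9 (0.973), SLC1A5 to BOD1 (0.993), SLC7A6 to PRPF38B (0.993) and SLC43A1 to RGCC (0.976).

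SLC7A5 and SLC7A6 reach the membrane only with the heavy chain encoded by SLC3A2 (CD98hc). SLC3A2 was at 297.0, 248.8, 283.0 and 288.3 CPM in the controls, 380.4, 348.8 and 408.3 at 10 µM and 1558 at 20 µM. Every treated library lay above every control. Its log2 fold change at 10 µM was 0.31 (SE 0.10, edgeR adjusted p = 0.0509), which passed with the replicate block (0.0269), and 20 µM stood 2.04 above 10 µM (SE 0.13, adjusted p = 0.000102). The heavy chain was thus above the controls at 10 µM in the libraries where SLC7A5 and SLC7A6 were mostly below them. SLC7A11, the cystine importer that shares this heavy chain, rose by 1.71 at 10 µM (adjusted p = 0.00411).

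Of the 29 other plasma membrane carriers listed, 11 were expressed enough to be tested at 10 µM. Of these, 2 rose (SLC7A11 and SLC6A6, the taurine carrier, 0.77) and 2 fell, against 9.34% and 9.79% of all genes. Those that fell were SLC38A5 (-1.07, edgeR adjusted p = 0.00964), a glutamine and serine carrier of the same family as SLC38A2, and SLC43A2 (-0.78, adjusted p = 0.0223), the closest relative of SLC43A1. The median of the 11 was 0.19. Of 8 lysosomal carriers tested, 3 rose and 1 fell at 10 µM, against the same shares of all genes. SLC66A1 (1.11), the cystine exporter CTNS (0.93) and SLC38A7 (0.80) rose and MFSD12 fell (-0.58), with a median of 0.28 for the 8. From 10 to 20 µM 5 of the 8 were higher (11.7% of all genes were), and 2 with the replicate block, where SLC66A1 (adjusted p = 0.112), SLC38A7 (0.156) and MFSD12 (0.0751) did not pass.

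Of 19 genes listed for the GCN2-ATF4 arm, 9 were higher at 10 µM by edgeR, against 9.34% of all genes. The list also holds the other eIF2 kinases EIF2AK1, EIF2AK2 and EIF2AK3, so it is not particular to GCN2. EIF2AK3 is itself among the 9. None was called lower (1 was lower at an unadjusted p under 0.05), against 9.79% of all genes, and the median was 0.67. The count higher was 13 with the replicate block, where 4657 of 14857 genes were called in either direction. It was 4 without 10 µM replicate 4, where 1463 of 14783 genes were called. ATF4 itself rose by 0.35 (adjusted p = 0.0369), and DDIT3 (CHOP, 1.79), ASNS (asparagine synthetase, 1.09) and TRIB3 (1.07) rose more. From 10 to 20 µM 12 of the 19 were higher, against 11.7% of all genes, with a median of 1.80. The kinases listed differed, with EIF2AK3 (PERK) higher at 10 µM by 0.86 (edgeR adjusted p = 0.00684) and EIF2AK4 (GCN2) at -0.06. The part of any kinase in these changes was not tested.

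Of 27 genes that sense amino acids for the growth kinase mTORC1, 5 rose and 1 fell at 10 µM, a share near the 19.1% of all genes called. It was 10 and 1 with the block and 10 and 3 with the naming term, which called 4657 and 4665 of 14857 genes. Their median was 0.21. Those that rose were RRAGD, a Rag GTPase (1.68), FLCN (0.86) and its partners FNIP1 (0.96) and FNIP2 (0.93), and SESN1 (0.55). Without 10 µM replicate 4 FNIP1 and SESN1 did not pass (adjusted p = 0.0696 and 0.153). RPTOR, the scaffold subunit of mTORC1, fell by 0.49 (edgeR adjusted p = 0.00884). MYC was at 257.3, 300.2, 297.5 and 252.1 CPM in the controls, 248.0, 232.6 and 209.6 at 10 µM and 707.7 at 20 µM. The 10 µM libraries lay below all controls and the 20 µM library above them, as for SLC1A5. SLC7A5 and SLC43A1, the other carriers with an E-box match, overlapped with the controls at 10 µM. The share of all genes with the pattern of MYC was not counted, and the part of MYC in the carrier levels was not tested. MYC stood at -0.40 at 10 µM (adjusted p = 0.0665, and past the threshold with the block) and 1.62 from 10 to 20 µM (adjusted p = 0.000681).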

How the data were processed

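RNA-seq counts were analysed for 8 K562 libraries. The authors deposited whole-number counts per gene, per the values and the file headers. The build was hg38, per the submitters' processing notes, and the tools included HISAT2, StringTie, limma, DESeq2 and bcl2fastq 2.0, and whether counting used strand is not given in the sources used here. A count may not be a single read, since 2958 entries were at 4 counts and 401 at 1. A further 9 lines are blank, with no gene name and no values, and were dropped.

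CPM is 1000000 times the count over the library total, without TMM. Overlap between groups was judged on this CPM, also for the shares of all genes. TMM factors were 0.903 to 1.000 in the controls and 1.018 to 1.085 in the treated libraries. CPM thus sets treated libraries somewhat higher against the controls than the fits do. Per-kb levels use all annotated exons of GENCODE release 29. Tests used R 4.3.3 and edgeR 4.0.16 (filterByExpr, TMM, glmQLFit and glmQLFTest, two-sided, Benjamini-Hochberg over all genes tested, threshold 0.05). The SE is the log2 fold change over the square root of F. The main fits had no replicate block. One fit set 4 treated against 4 control libraries, and a fit with 3 dose levels gave the dose steps. Alternatives were the block, other scalings and filters, limma-voom (limma 3.58.1), DESeq2 1.42.0, each library left out, and, added after the data were seen, the naming pattern as a term. The fits were tested on simulated data.

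Same-numbered control and treated libraries deviated together from their groups' mean log2 CPM, with correlations across genes of 0.453, 0.251, 0.390 and 0.262 for numbers 1 to 4. The pairing comes from these correlations and the shared numbers in the labels. The numbers are not singled out, since control 2 correlated with 10 µM replicate 3 at 0.310 and control 3 with replicate 2 at 0.242, all digit-named, and over numbers 2 to 4 control 2 gave 0.136 with its own number and 0.127 with replicate 3. Nothing in the labels says that replicates came from separate cultures, so p-values measure the spread between these samples, which may be technical.

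Members and gene lists were chosen with earlier results of these data known. Named genes were the 9 members, SLC3A2, SLC7A11, MYC, for each other list the 4 genes with the smallest p and the 2 with the highest mean CPM, and the 3 genes most like each member. Other genes named in the text (SLC7A6OS, CCDC24, ITGB3, PF4, and list members outside that rule) were chosen after their values were seen.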

Additional observations from a re-analysis of the deposited data

Results flagged for a closer look

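In 7 of 26 groups of 4 libraries examined (the 9 carriers, SLC3A2, SLC7A11, MYC and the sum of the 9 carriers, in controls and treated), 1 library stood far from the other 3. Chance gives about 1 in 20 for separate groups of 4 like samples. The treated groups mix doses, and many of these genes run together, so that rate does not hold for them. In each of the 7 groups that library was the 20 µM one, the only one at its dose, above the 3 at 10 µM. It stood at 278.4 CPM for SLC7A1, 180.2 for SLC1A4, 763.6 for SLC1A5 and 123.1 for SLC6A9. Among the related genes it stood at 1558 CPM for SLC3A2, 452.7 for SLC7A11 and 707.7 for MYC. Dose and library cannot be told apart here.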

How the results depend on the processing

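With both doses pooled against control, 1 carrier was called higher and 0 lower by edgeR (5 and 1 at an unadjusted p under 0.05), and 1855 genes in all. The counts higher became 2 under upper-quartile scaling, the replicate block, the naming pattern as a term and digit-named libraries alone, 4 by DESeq2 and 0 in letter-named libraries alone (4 at an unadjusted p). One was lower by DESeq2, with the naming term and in digit-named libraries. All genes called were 3395 by DESeq2, 2815 with the block, 3348 with the naming term, 3137 for digits and 0 for letters (2694 at an unadjusted p). Leaving out 1 library gave 64 to 3021 genes, 0 to 3 carriers higher and 0 to 1 lower.

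At 10 µM the 3 higher and 1 lower became 5 and 3 with the block and with the naming term (4657 and 4665 genes, from 2842), and 1 and 0 in letter-named libraries (1002 genes). The number lower was 0 under upper-quartile scaling and with no filter, and 3 by DESeq2. Leaving out 1 library gave 1364 to 3021 genes, 1 to 3 higher and 0 to 1 lower. From 10 to 20 µM it gave 2857 to 4300 genes, 5 to 7 higher and 0 lower.

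Directions turned mostly for values near 0. An exception was SLC6A9 at 10 µM, whose value was about as large as the called rise of SLC7A1 (0.35). Pooled, SLC7A5 (0.14) became -0.0409 (limma-voom), -0.0456 (block) and -0.55 (digits). The digit-named set holds no 20 µM library, so its pooled value is its 10 µM value. SLC7A5 ran from -0.39 (without the 20 µM library) to 0.32 (without 10 µM replicate 3) as 1 library was left out. SLC1A5 (-0.01) became 0.0449 (upper-quartile), 0.0133 (1 CPM filter) and 0.20 (letters), and ran from -0.31 (without the 20 µM library) to 0.0761 (without 10 µM replicate 3). SLC43A1 (-0.07) ran from -0.22 (without the 20 µM library) to 0.0017 (without 10 µM replicate 3). SLC6A9 at 10 µM (0.36) ran from -0.17 (without replicate 4) to 0.60 (without replicate 3), and SLC7A6 from 10 to 20 µM 0.10 with the block. The cause was not tested.

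Upper-quartile scaling moved the median of all genes, pooled, from 0.08 to 0.14. The block changed no call of the 9 carriers beyond those given in the text. Without the 20 µM library the step from 10 to 20 µM could not be fitted, and the letter-named and digit-named libraries alone were not run for it. Depth did not limit the carriers, which had 622 counts or more in every library.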

Other observations

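Of 20 tested enzymes that use the carried amino acids, 1 rose at 10 µM, the mitochondrial arginase ARG2 (0.90 on the log2 scale, edgeR adjusted p = 0.0174), and 2 fell. Those 3 of 20 are no larger a share than the 19.1% of all genes called. The genes that fell were ODC1, ornithine decarboxylase, the entry to polyamine synthesis (-0.91, adjusted p = 0.00843), and GOT2, the mitochondrial aspartate aminotransferase (-0.49, adjusted p = 0.0194). ARG2 makes the ornithine that ODC1 uses, and from 10 µM to the single 20 µM library they again stood apart, at 2.61 (adjusted p = 0.000548) and -1.40 (adjusted p = 0.00668). In the same step GOT1, the cytosolic aspartate aminotransferase (1.32), and GCLC, which starts glutathione synthesis (2.48), were higher. Lower were GLUD1, glutamate dehydrogenase (-1.14), the serine and glycine enzyme SHMT1 (-1.02), the glutathione synthetase GSS (-0.72), GOT2 (-0.92), ASL (-0.53) and BCKDHB (-1.44). That makes 3 higher and 7 lower of the 20, against 11.7% and 14.6% of all genes, with a median of -0.13. The lean to lower was not kept with the replicate block, at 6 higher and 5 lower, or with the naming term, at 6 and 6, and with the block ASL (adjusted p = 0.109) and BCKDHB (0.0639) did not pass. Without 10 µM replicate 4 ARG2 and GOT2 did not pass at 10 µM (edgeR adjusted p = 0.0659 and 0.0608). These genes were named after their values were seen.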
